A study of Mus musculus with 16 samples.

Results

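The genes described here are the interleukin-10 gene, the interleukin-6-type cytokine genes and their signalling and feedback genes in mouse macrophages, chosen by name as the rows of the deposited count table called Osm, Lif, Il6, Il10, Il10ra, Il6ra, Stat3, Socs1, Socs2 and Socs3. They are 10 of the 46320 genes named in the table, and 9 of them passed the filter on low counts that left 15610 genes for testing. The study exposed macrophages to platelets, the anucleate blood cells that plug wounds, and to thrombin, the clotting protease that activates them. The 4 treatments lasted 4 hours and had 4 libraries each. They were platelets activated with thrombin, platelets at rest with no thrombin added, thrombin with no platelets, and PBS as vehicle. All cells and platelets came from C57BL6/J mice. Bone marrow was cultured over 7 days in 15% L929-conditioned medium, which supplies the macrophage growth factor M-CSF. All groups were held in 0.5% serum for 4 hours before treatment. The protocol gives 0.01 U/mL thrombin for both the thrombin and the activated platelet groups, but the labels of the thrombin libraries read 0.1 U/mL, so any comparison between those groups may be of different doses. The sources used here give neither the age and number of the animals nor the number of platelets per macrophage.

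Interleukin-6, leukemia inhibitory factor (Lif) and oncostatin M (Osm) are cytokines that signal through receptors sharing the gp130 chain, which is encoded by Il6st. Their receptors and the interleukin-10 receptor activate Janus kinases, which phosphorylate STAT3, a transcription factor that moves to the nucleus. In macrophages, STAT3 downstream of interleukin-10 restrains the production of inflammatory cytokines, and the suppressor of cytokine signalling (SOCS) proteins, whose genes cytokines induce, end the signal at the receptor and kinase.

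All 8 macrophage markers, among them Adgre1 and Csf1r, were present in every group and took 1.66% to 2.12% of counts. Total counts per library, in mega-counts (M), were 28.0 to 30.6 with activated platelets, 24.9 to 26.4 with resting platelets, 23.1 to 26.7 with thrombin and 22.6 to 27.7 with vehicle. Libraries with the same replicate number deviated together across groups, and replicate 1 differed from replicates 2 to 4 in the sex-linked transcripts Ddx3y and Xist. Replicate 1 had 85.1 to 93.2 CPM of Ddx3y, against at most 0.27 CPM in the others. Xist was at most 1.06 CPM in replicate 1 and 1055 to 1292 CPM in the others. CPM (counts per M counts) are taken after scaling for library composition. No platelet-only library is among the 16. The 12 platelet and megakaryocyte markers together took 0.0355% to 0.0407% of counts with activated platelets, 0.0214% to 0.0254% with resting platelets, 0.0197% to 0.0223% with thrombin and 0.0188% to 0.0239% with vehicle, and Gp9 was at 0 in the thrombin and vehicle groups. The 5 erythroid markers took 0.00077% to 0.0014% with activated platelets and at most 7.3e-06% with vehicle, and the 9 lymphocyte markers took 0.00068% to 0.0013% with activated platelets and 0.0018% to 0.0033% with vehicle, with Cd3e and Cd3g at 0 in both. The part of RNA from platelets or from these cells in the results below was not tested. In bulk RNA, fewer cells of a type and less RNA per cell cannot be told apart.

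RefSeq promoter windows, from 250 bases before to 50 bases after the annotated start on build GRCm38.p6, were at hand for 6 of the 10 genes (Il6ra, Il6, Lif, Stat3, Socs3 and Socs1). The 3 printed here belong to genes that changed with activated platelets, and each is written 5′ to 3′ on the strand of its gene. Capitals mark any match to a STAT motif (TTCNNNGAA), an AP-1 motif (TGANTCA) or a cyclic AMP response element (TGACGTCA). Each motif was searched on both strands, reads the same on both, and none overlapped another. The windows are chr11:4257318-4257617 on the plus strand for Lif, chr11:117969317-117969616 on the minus strand for Socs3 and chr11:100939491-100939790 on the minus strand for Stat3.
Lif: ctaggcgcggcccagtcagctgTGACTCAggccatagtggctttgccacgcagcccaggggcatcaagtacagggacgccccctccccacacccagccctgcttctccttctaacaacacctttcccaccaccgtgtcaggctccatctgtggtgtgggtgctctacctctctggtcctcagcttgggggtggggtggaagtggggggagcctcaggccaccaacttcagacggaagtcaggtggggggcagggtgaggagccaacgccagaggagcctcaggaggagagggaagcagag
Socs3: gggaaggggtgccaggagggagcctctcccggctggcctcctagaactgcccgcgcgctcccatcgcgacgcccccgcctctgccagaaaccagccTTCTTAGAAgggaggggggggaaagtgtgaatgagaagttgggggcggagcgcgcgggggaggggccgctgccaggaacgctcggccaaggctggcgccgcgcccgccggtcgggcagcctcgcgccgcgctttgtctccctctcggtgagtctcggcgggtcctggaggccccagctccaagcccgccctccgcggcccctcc
Stat3: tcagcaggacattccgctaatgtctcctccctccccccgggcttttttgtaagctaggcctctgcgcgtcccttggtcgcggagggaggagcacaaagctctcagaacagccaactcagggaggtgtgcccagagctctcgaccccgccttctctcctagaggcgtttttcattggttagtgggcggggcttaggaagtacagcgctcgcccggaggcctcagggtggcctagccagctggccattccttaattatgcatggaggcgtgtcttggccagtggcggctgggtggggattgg
The Lif window held an AP-1 match whose first base lay at -228 from the start, the Socs3 window held a STAT match at -154, and the Stat3 window held neither. The Il6 window had an AP-1 match at -249, and the Il6ra and Socs1 windows had no match to the 3 motifs. Of 32807 RefSeq windows of the same length, 8.29% held the STAT motif, 7.82% the AP-1 motif and 1.79% the cyclic AMP response element. A match describes these letters and is not a binding site.

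Per kilobase of combined exon, the receptor chains and Stat3 stood well above the cytokines and Socs genes in every group. With activated platelets the order of mean levels was Il10ra (63.1 CPM per kb), Il6ra (33.1), Stat3 (32.7), Osm (9.99), Lif (6.62), Socs3 (3.15), Socs2 (0.878), Socs1 (0.581), Il6 (0.209) and Il10 (0.0720). The libraries of Il6ra and Stat3, and those of Socs2 and Socs1, overlapped there, and all other neighbours were apart. With vehicle the order was Il10ra (56.2 CPM per kb), Il6ra (35.1), Stat3 (27.2), Osm (3.21), Socs3 (1.94), Lif (1.48), Socs1 (0.664), Socs2 (0.422), Il10 (0.240) and Il6 (0.0769). The libraries of Socs3 and Lif, and those of Socs1 and Socs2, overlapped with vehicle. Lif thus stood below Socs3 with vehicle and above it with activated platelets, and Il6 and Il10 exchanged the lowest places. In the resting platelet group Osm overlapped Lif, and Lif overlapped Socs3. Il6ra and Stat3, Socs1 and Socs2, and Il10 and Il6 also overlapped there. In the thrombin group the order was that of vehicle except that Lif, at 1.91 CPM per kb, stood above Socs3, at 1.68 CPM per kb, with overlapping libraries. The level of Socs2 depends on a combined exon length of 13085 bases, against 1141 to 5474 bases for the other 9 genes.

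**Figure D1:**
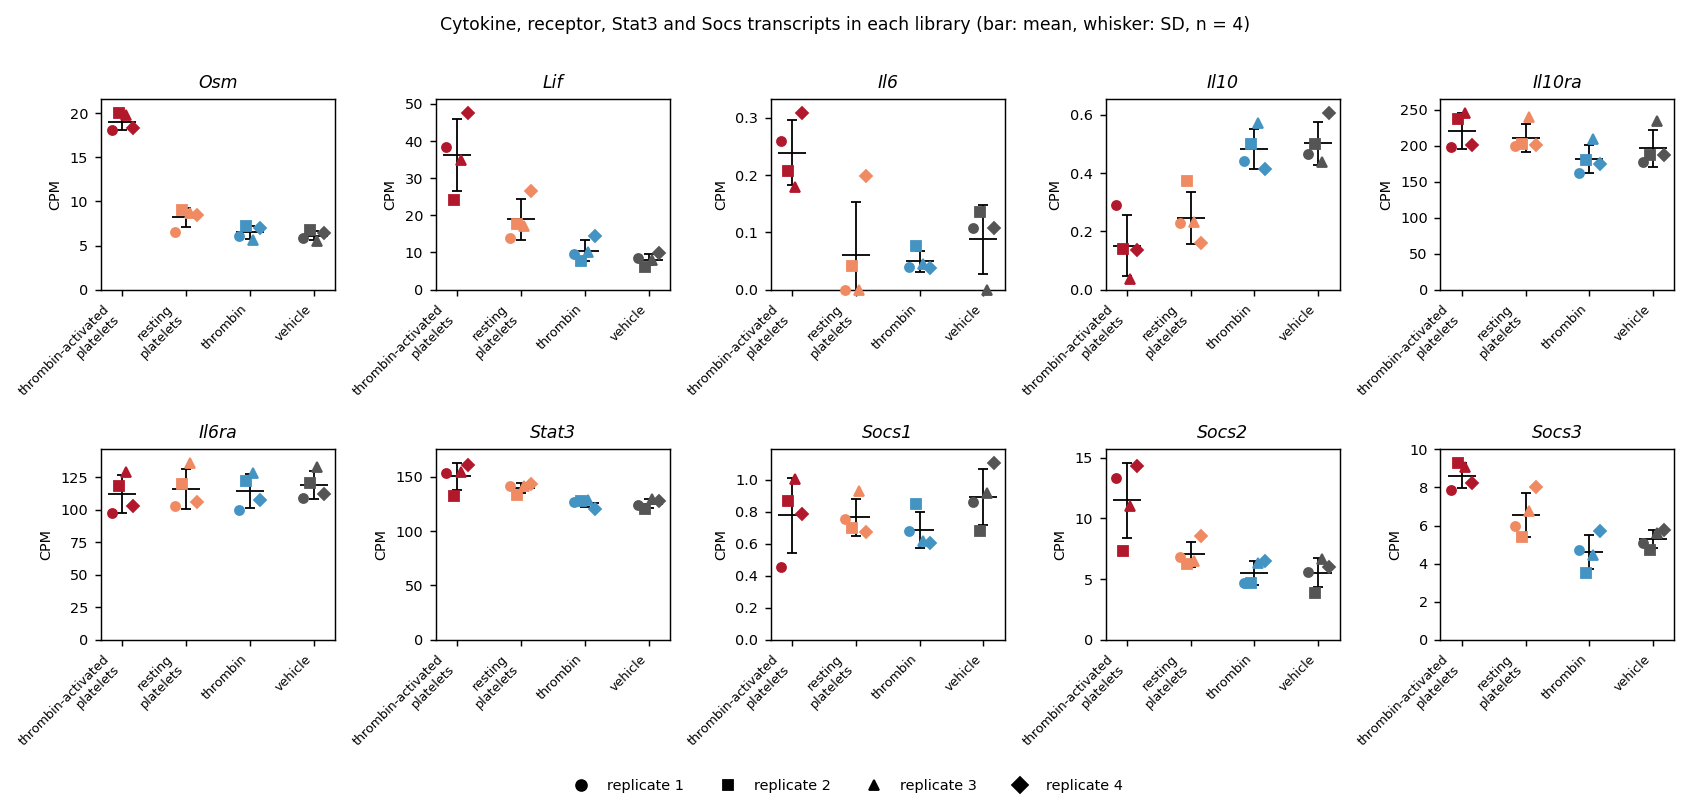
CPM of each of the 10 genes in each library, with a point per library, its shape giving the replicate number, a bar at the group mean and whiskers of 1 SD (n = 4 libraries per group). With activated platelets, Osm sits between 18.1 and 20.03 CPM and Lif between 24.05 and 47.6 CPM, above every vehicle library, whereas Il10 sits below every vehicle library.

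The first comparison asks how transcript levels in macrophages with activated platelets differ from those with vehicle. With activated platelets, transcripts of Lif and Osm rose 4.45-fold and 3.11-fold over vehicle, those of the feedback genes Socs2 and Socs3 rose 2.07-fold and 1.63-fold, Stat3 rose 1.20-fold, and Il10 fell to a level 3.21-fold lower. Il10ra, Il6ra and Socs1 did not pass the test. A gene is called higher or lower where its p from edgeR's quasi-likelihood test, adjusted by Benjamini-Hochberg over all 15610 tested genes, is under 0.05. Of the 9 tested genes 5 were called higher and 1 lower, against 25.8% of all tested genes called in either direction, 12.2% higher and 13.6% lower. The median log2 fold change was 0.26 over the 9 genes and -0.0040 over all tested genes.

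Osm encodes oncostatin M, which in mouse acts mainly through gp130 paired with the oncostatin M receptor chain. Osm had 18.1, 20.03, 19.8 and 18.3 CPM with activated platelets, 6.55, 8.99, 8.71 and 8.51 CPM with resting platelets, 6.10, 7.20, 5.63 and 6.98 CPM with thrombin, and 5.87, 6.73, 5.49 and 6.39 CPM with vehicle. The activated platelet libraries were all far above every other library and close to each other, while the resting platelet, thrombin and vehicle groups overlapped. The log2 fold change over vehicle was 1.64 ± 0.10 (SE, adjusted p = 1.45e-08), and within replicate numbers the ratio lay between 2.86 and 3.60. Osm lies on chromosome 11 at 4186785 to 4191026 (GRCm39, plus strand), and the neighbouring Lif starts 16541 bases beyond its end, at 4207568 to 4222514 on the same strand. Stat3 (100777632 to 100830447) and Socs3 (117856905 to 117860192) lie further along chromosome 11 on the minus strand. The other genes lie on chromosome 1 (Il10), chromosome 3 (Il6ra), chromosome 5 (Il6), chromosome 9 (Il10ra), chromosome 10 (Socs2) and chromosome 16 (Socs1), and all 10 are annotated as protein coding.

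Lif encodes leukemia inhibitory factor, which binds the Lif receptor and gp130. Lif had 38.4, 24.05, 34.9 and 47.6 CPM in replicates 1 to 4 with activated platelets, 13.97, 17.8, 17.1 and 26.6 CPM with resting platelets, 9.71, 7.63, 10.1 and 14.4 CPM with thrombin, and 8.45, 6.09, 7.98 and 9.88 CPM with vehicle. Both platelet groups lay above every vehicle library, and the activated and resting groups overlapped in that the lowest activated library was below the highest resting library. The log2 fold change of activated platelets over vehicle was 2.16 ± 0.24 (SE, adjusted p = 6.75e-06), with ratios of 3.95 to 4.81 within replicate numbers. The spread of Lif followed the replicate numbers, since replicate 4 was the highest library of every group, and replicate 2 the lowest of all groups but the resting platelet group. The 7 stromal cell markers, among them Col1a1 and Dcn, all present in every group, moved with replicate number as well. They took 0.436%, 0.199%, 0.234% and 0.389% of counts in replicates 1 to 4 with activated platelets and 0.509%, 0.247%, 0.275% and 0.440% with vehicle. Within every number the stromal share was lower with activated platelets than with vehicle, and Lif was higher. A marker share does not show which cells made Lif, and the part of stromal RNA in its level was not tested.

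**Figure D2:**
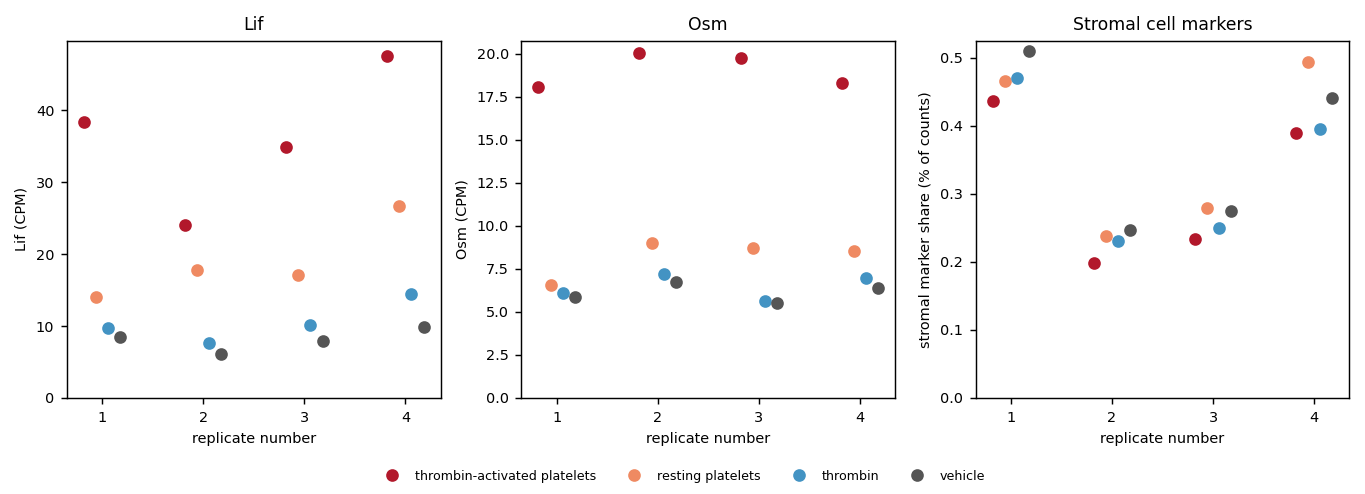
Lif and Osm (CPM) and the share of counts in 7 stromal cell markers (%) by replicate number, with a point per library coloured by treatment. Within every number Lif and Osm are highest with activated platelets, and the stromal share is lower with activated platelets than with vehicle.

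Il6 was near the limit of detection and did not pass the filter on low counts. The libraries held 8, 6, 5 and 9 Il6 reads with activated platelets, 0, 1, 0 and 5 with resting platelets, 1, 2, 1 and 1 with thrombin, and 3, 3, 0 and 3 with vehicle. Every activated platelet library was above every vehicle and every thrombin library, and the groups of activated and resting platelets overlapped. Mean levels were 0.239 ± 0.057 CPM with activated platelets and 0.0877 ± 0.060 CPM with vehicle (SD, n = 4 each), and the ratio of the summed counts, 28 against 9, was 2.81 with a 95% counting interval of 1.29 to 6.76. A two-sided exact permutation test over the 70 arrangements of 4 against 4 gave p = 0.0286 for activated platelets against vehicle and against thrombin, the smallest it can give, and 0.0714 after Benjamini-Hochberg adjustment over 5 comparisons. The same exact test gave p = 0.0571 for activated against resting platelets. A gene on the opposite strand, A230098N10Rik, covers the Il6 locus and held 17.7 counts over all libraries, against 48 for Il6, and the sources used here do not say whether counting used strand.

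Il10, which encodes the anti-inflammatory cytokine of this group, was lower with activated platelets, at very low counts. The libraries held 9, 4, 1 and 4 Il10 reads with activated platelets, 6, 9, 6 and 4 with resting platelets, 11, 13, 13 and 11 with thrombin, and 13, 11, 12 and 17 with vehicle. In CPM the activated platelet libraries lay between 0.0359 and 0.292 and the vehicle libraries between 0.439 and 0.607. Both platelet groups were below every vehicle and every thrombin library and overlapped each other. The log2 fold change of activated platelets against vehicle was -1.68 ± 0.36 (SE, adjusted p = 0.00279). The ratio of summed counts, 18 against 53, was 0.306 with a 95% counting interval of 0.169 to 0.532. This call was kept when each library was left out in turn.

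Neither receptor chain passed the test. Il10ra, the ligand-binding chain of the interleukin-10 receptor, had 198, 238, 246 and 201 CPM with activated platelets, against 177, 188, 234 and 187 CPM with vehicle. The ranges overlapped across the groups, but within every replicate number Il10ra was higher with activated platelets, by 1.05 to 1.27 times. Its log2 fold change was 0.17 ± 0.10 (SE, adjusted p = 0.254), and adjusted p = 0.000722 with replicate number as a block. Il6ra, the ligand-binding chain of the interleukin-6 receptor, had 97.2, 118, 129 and 103 CPM with activated platelets, against 109, 120, 133 and 112 CPM with vehicle. The groups overlapped, and the log2 fold change of -0.09 ± 0.11 (SE, adjusted p = 0.615) had adjusted p = 0.0213 with the block. With the block 8 of the 9 genes were called, against 42.5% of all tested genes.

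Stat3 had 154, 132, 154 and 161 CPM with activated platelets, against 124, 120, 129 and 127 CPM with vehicle. Every activated platelet library was above every vehicle library, with replicate 2 the lowest of both groups. The log2 fold change was 0.26 ± 0.05 (SE, adjusted p = 0.00111).

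Of the 3 SOCS genes, Socs2 and Socs3 passed the test and Socs1 did not. Socs2, an inhibitor best known from growth hormone signalling, had 13.3, 7.35, 11 and 14.3 CPM with activated platelets, against 5.62, 3.82, 6.66 and 5.99 CPM with vehicle. Its activated platelet libraries were all above the vehicle libraries, the closest being replicate 2, with the log2 fold change at 1.05 ± 0.20 (SE, adjusted p = 0.00104). As with Lif, replicate 4 was above and replicate 2 below the group mean of Socs2 in 4 of 4 groups. The part of stromal RNA in the level of Socs2 was not tested. Socs3, the inhibitor that binds gp130 and limits interleukin-6 signalling, had 7.88, 9.29, 9.06 and 8.23 CPM with activated platelets, against 5.08, 4.73, 5.6 and 5.74 CPM with vehicle. These groups were also apart, with the log2 fold change at 0.70 ± 0.14 (SE, adjusted p = 0.00122). Socs1, the inhibitor best known from interferon signalling, had 0.454, 0.866, 1.01 and 0.789 CPM with activated platelets, against 0.859, 0.682, 0.915 and 1.11 CPM with vehicle. The Socs1 groups overlapped, and the log2 fold change was -0.21 ± 0.23 (SE, adjusted p = 0.550).

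With resting platelets, Lif and Osm rose 2.32-fold and 1.34-fold over vehicle and no other tested gene of the 9 was called, so 2 of 9 were called, both higher, against 3.39% of all tested genes called, 2.07% higher and 1.32% lower. The median log2 fold change was 0.16 over the 9 genes and -0.0031 over all tested genes. Lif had a log2 change of 1.21 ± 0.24 (SE, adjusted p = 0.0119) and every resting library was above every vehicle library. Its adjusted p was between 0.0689 and 0.113 when replicate 1, 2 or 3 of every group was left out. Osm had a log2 change of 0.42 ± 0.10 (SE, adjusted p = 0.0385), and its resting replicate 1, at 6.55 CPM, lay below the highest vehicle library, at 6.73 CPM. The Osm call was lost when any single library of either group other than that resting replicate 1 was left out, with adjusted p between 0.0568 and 0.117.

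Il10 and Stat3 did not pass this test, and their groups did not overlap. The share of all tested genes whose groups did not overlap is not given here. Il10 had 0.227, 0.371, 0.232 and 0.158 CPM with resting platelets, against 0.465, 0.500, 0.439 and 0.607 CPM with vehicle, all lower, with the log2 fold change at -1.02 ± 0.34 (SE, adjusted p = 0.111). Stat3 had 141, 133, 142 and 143 CPM with resting platelets, all above the vehicle libraries, with the log2 fold change at 0.16 ± 0.05 (SE, adjusted p = 0.0934, and 0.0394 with DESeq2). Socs2 averaged 7.03 ± 1.06 CPM with resting platelets and 5.52 ± 1.22 CPM with vehicle (SD, n = 4 each), with adjusted p = 0.392. Socs3 averaged 6.55 ± 1.14 CPM with resting platelets and 5.29 ± 0.47 CPM with vehicle (SD, n = 4 each), with adjusted p = 0.240. With replicate number as a block, 7 of the 9 genes were called against 21.5% of all tested genes. The block added Il10 (adjusted p = 0.0433), Il10ra (0.0473), Stat3 (0.00469), Socs2 (0.0445) and Socs3 (0.0477).

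**Figure D3:**
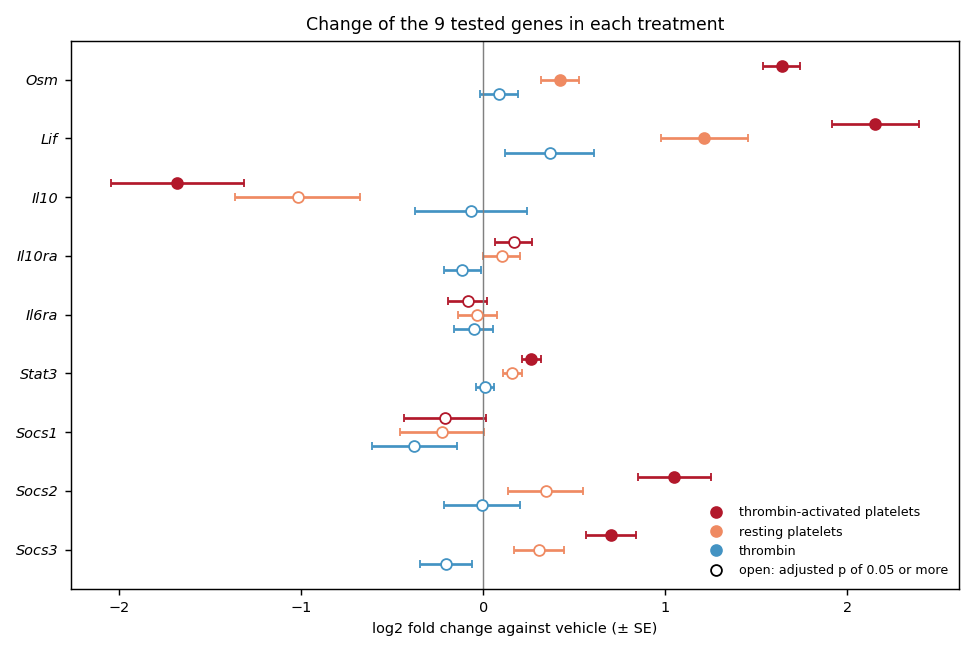
Log2 fold change against vehicle (horizontal axis) of the 9 tested genes, with a point and SE per treatment and filled points where the adjusted p is under 0.05. With activated platelets 6 points are filled, with resting platelets only those of Lif and Osm, and with thrombin none.

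Thrombin without platelets was not accompanied by a call of any of the 9 genes in edgeR's test, against 0.288% of all tested genes called, 0.0897% higher and 0.199% lower. In that test 0 of the 9 had an unadjusted p under 0.05, against 1786 of all 15610 tested genes. DESeq2, limma-voom and the fit with a replicate block called none either. The median log2 fold change was -0.052 over the 9 genes and 0.0056 over all tested genes. The largest log2 difference in size was that of Socs1, at -0.38 ± 0.23 (SE, adjusted p = 0.587). Lif had the next largest, at 0.36 ± 0.24 (SE, adjusted p = 0.629), and was higher with thrombin than with vehicle in 4 of 4 replicate numbers, by 1.15 to 1.46 times. Osm, at 6.48 ± 0.74 CPM with thrombin and 6.12 ± 0.55 CPM with vehicle (SD, n = 4 each), was also higher in each number, by 1.03 to 1.09 times. Il10ra and Socs3 were lower with thrombin than with vehicle in 4 of 4 numbers, with ratios of 0.893 to 0.960 for Il10ra and 0.742 to 0.992 for Socs3. How many of all tested genes moved 1 way in every number is not given here. Il10 had 48 summed counts with thrombin and 53 with vehicle, and the 95% counting interval of their ratio was 0.631 to 1.43. The interval of the ratio to vehicle was 0.291 to 0.799 with resting platelets, which overlaps it. With activated platelets it was 0.169 to 0.532, which does not overlap it. These intervals cover counting error only and share the vehicle counts, so their overlap is no test of 1 treatment against another.

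Activated platelets were also set against resting platelets, which asks what thrombin adds when platelets are present. Osm, Lif and Socs2 rose, 3 of 9 tested genes, all higher, against 15.8% of all tested genes called, 7.34% higher and 8.49% lower. The median log2 fold change was 0.10 over the 9 genes and -0.0028 over all tested genes. Osm was 2.33-fold higher with activated platelets (log2 fold change 1.22 ± 0.10 SE, adjusted p = 1.06e-06) and the groups were far apart. Lif was 1.92-fold higher (adjusted p = 0.0100) with overlapping groups, and was higher with activated platelets within every replicate number, by 1.35 to 2.75 times. Its adjusted p was 0.139 without replicate 1 and 0.0926 without replicate 3 of every group. Socs2 was 1.63-fold higher (adjusted p = 0.0226), and 5 of the 8 single libraries of these groups, left out in turn, took its adjusted p to between 0.0583 and 0.0685.

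Socs3 had 5.98, 5.40, 6.77 and 8.04 CPM with resting platelets, and its highest resting library lay above the lowest activated library, at 7.88 CPM. The log2 fold change of activated against resting platelets was 0.39 ± 0.13 (SE, adjusted p = 0.0584). Its adjusted p was 0.0418 with DESeq2, 0.0336 with limma-voom and 0.00286 with a replicate block. Il10 summed to 18 counts with activated platelets and 25 with resting platelets, with adjusted p = 0.317. Stat3 had an adjusted p of 0.185, and 0.0388 with the block, with which 5 of 9 genes were called against 34.5% of all tested genes.

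Set against thrombin, activated platelets gave the calls it gave against vehicle, Lif, Osm, Stat3, Socs2 and Socs3 higher and Il10 lower, 5 higher and 1 lower of 9, against 25.4% of all tested genes called, 11.9% higher and 13.5% lower. This comparison shares its activated platelet libraries with that against vehicle, and its median log2 fold change over the 9 genes was 0.28. Lif was 3.46-fold, Osm 2.93-fold, Socs2 2.08-fold, Socs3 1.87-fold and Stat3 1.19-fold higher than with thrombin, and Il10 was 3.06-fold lower (adjusted p = 0.00415). Il10ra averaged 221 ± 24.7 CPM with activated platelets and 182 ± 19.7 CPM with thrombin (SD, n = 4 each), with adjusted p = 0.0513. Its adjusted p was 0.0486 with RLE size factors and 0.0319 with DESeq2. With the replicate block its adjusted p was 1.48e-06 and 7 of 9 genes were called, against 41.6% of all tested genes.

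Whether thrombin did more in the presence of platelets than in their absence was tested as an interaction, the difference of activated and resting platelets minus the difference of thrombin and vehicle. If the thrombin doses with and without platelets differed, as the labels leave possible, dose and the presence of platelets cannot be told apart here. Only Osm of the 9 genes was called, 1 of 9, against 9.93% of all tested genes called, 4.56% higher and 5.37% lower. The thrombin difference of Osm was 1.22 log2 units with platelets and 0.09 without, and the interaction was 1.13 ± 0.15 (SE, adjusted p = 0.000234). The interaction was 0.58 for Lif (adjusted p = 0.306), 0.71 for Socs2 (adjusted p = 0.128) and 0.60 for Socs3 (adjusted p = 0.0645, and 0.0346 with DESeq2). Its median was 0.40 over the 9 genes and -0.011 over all tested genes. With the replicate block 5 of 9 genes were called against 29.1% of all tested genes, adding Lif (adjusted p = 0.0255), Socs2 (0.0030), Socs3 (0.00438) and Il10ra (0.0137).

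The other genes of the pathway were taken from 7 lists, of the kinds of gene that surround the 10. The part of stromal RNA in their levels was not tested. Of the 8 further interleukin-6 family ligands 6 were tested, and 2 were called higher and 0 lower with activated platelets against vehicle. Of all tested genes 25.8% were called in that comparison, 12.2% higher and 13.6% lower. Il11, a gp130 cytokine, averaged 4.42 ± 0.84 CPM with activated platelets, 0.479 ± 0.320 CPM with resting platelets, 0.238 ± 0.094 CPM with thrombin and 0.225 ± 0.066 CPM with vehicle (SD, n = 4 each). It was 19.1-fold higher with activated platelets than with vehicle (adjusted p = 1.14e-07). Clcf1, which encodes another gp130 ligand, was 1.88-fold higher (adjusted p = 0.00028). None of the 4 further interleukin-10 family ligands, Il19, Il20, Il22 and Il24, passed the filter on low counts.

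Among 8 further receptor chains 7 were tested, and 0 were called higher and 2 lower, a share near the 25.8% of all tested genes called in this comparison. Il6st, the shared gp130 chain, averaged 117 ± 2.38 CPM with activated platelets, 201 ± 20.8 CPM with resting platelets, 244 ± 22.2 CPM with thrombin and 227 ± 23.1 CPM with vehicle (SD, n = 4 each). Its activated platelet libraries were below every vehicle library, 1.94-fold lower (adjusted p = 3.66e-07). Lifr, the Lif receptor chain, was 2.44-fold lower, at 6.28 ± 1.06 CPM with activated platelets and 15.3 ± 2.56 CPM with vehicle (SD, n = 4 each, adjusted p = 9.67e-06). Osmr, the oncostatin M receptor chain, averaged 19.9 ± 5.99 CPM with activated platelets and 13.01 ± 3.75 CPM with vehicle (SD, n = 4 each, adjusted p = 0.107), and Il10rb, the second interleukin-10 receptor chain, 303 ± 9.67 CPM with activated platelets and 295 ± 15.5 CPM with vehicle (SD, n = 4 each, adjusted p = 0.630). With the replicate block 4 of the 6 ligands and 4 of the 7 receptor chains were called, against 42.5% of all tested genes.

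Of the 10 Janus kinases and other STATs, 2 were called higher and 3 lower, with a median log2 fold change of -0.048. Activated platelets against vehicle gave calls for 25.8% of all tested genes, 12.2% higher and 13.6% lower. Jak2, a kinase bound to gp130 receptors, was 1.20-fold higher (adjusted p = 0.00214), and Stat4 was 3.12-fold higher at a level of 1.42 ± 0.57 CPM with activated platelets and 0.441 ± 0.299 CPM with vehicle (SD, n = 4 each). Stat5a, Stat5b and Tyk2 were 1.23-fold, 1.29-fold and 1.16-fold lower. Of 13 further SOCS genes and inhibitors of the pathway, 3 were called higher and 5 lower, against the same shares, with a median of -0.035. The phosphatase gene Ptpn6 (SHP-1) was 1.59-fold lower (adjusted p = 3.18e-08), and Pias3, an inhibitor of STAT3, was 1.23-fold lower. Cish, a SOCS family gene induced by STAT5, was 1.68-fold higher (adjusted p = 0.0117), with overlapping groups.

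Of 16 genes known to respond to interleukin-10 or STAT3, 8 were called higher and 2 lower, with a median of 0.23. The shares of all tested genes with activated platelets against vehicle were 25.8% called, 12.2% higher and 13.6% lower. Il1rn, the interleukin-1 receptor antagonist, averaged 64.4 ± 5.29 CPM with activated platelets, 36.5 ± 0.87 CPM with resting platelets, 35.3 ± 3.73 CPM with thrombin and 26.9 ± 1.73 CPM with vehicle (SD, n = 4 each). It was called higher against vehicle with activated platelets (2.39-fold, adjusted p = 6.97e-09), with resting platelets (1.36-fold, adjusted p = 0.00453) and with thrombin (1.31-fold, adjusted p = 0.0422). The call with thrombin was lost with limma-voom (adjusted p = 0.0533), with the correction for GC content (0.172) and with only the groups compared (0.199). Nfil3, a transcription factor induced by interleukin-10, and Pim1, a kinase gene induced by STAT3, were 1.68-fold and 1.74-fold higher with activated platelets, whereas Etv3, a repressor induced by interleukin-10, and the cyclin gene Ccnd1 were 1.48-fold and 2.05-fold lower.

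Of 13 regulators of Il6 and Il10 transcription or RNA decay, 5 were called higher and 2 lower with activated platelets against vehicle, with a median of 0.12. The shares of all tested genes were 12.2% higher and 13.6% lower. Crem, a cyclic AMP-responsive factor, was 2.26-fold higher (adjusted p = 6.01e-07), and Cebpb, a factor that binds the Il6 promoter, was 2.37-fold higher, at 129 ± 17.5 CPM with activated platelets and 54.4 ± 5.0 CPM with vehicle (SD, n = 4 each). Zfp36 (tristetraprolin), which promotes decay of cytokine RNAs, was 1.62-fold higher. Atf3, a stress-induced repressor, was 2.91-fold lower, at 103 ± 31.7 CPM with activated platelets and 299 ± 97.3 CPM with vehicle (SD, n = 4 each, adjusted p = 0.000342). Maf (c-Maf), an activator of Il10, was 1.63-fold lower, at 147 ± 20.9 CPM with activated platelets and 240 ± 40.3 CPM with vehicle (SD, n = 4 each, adjusted p = 0.00164).

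**Figure D4:**
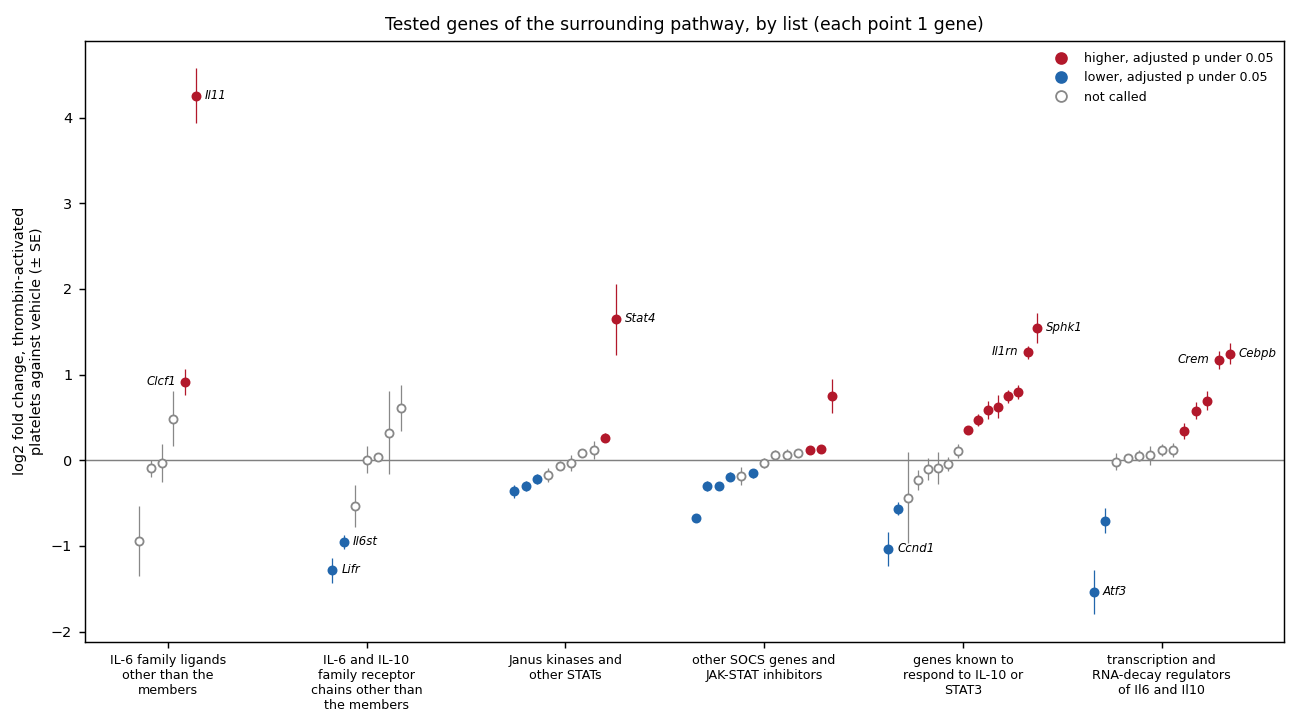
Log2 fold change of activated platelets against vehicle (vertical axis, ± SE) for the tested genes of 6 pathway lists, with a point per gene, red where called higher, blue where called lower and open where not called. Il11 stands highest at 4.26, and Il6st and Lifr are the called receptor chains, both below 0.

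With resting platelets against vehicle, 4 of the 65 tested genes of these lists were called, where 3.39% of all tested genes were. They were Il1rn, Nfil3 (1.22-fold, adjusted p = 0.0475) and Socs4 (1.09-fold, adjusted p = 0.0384), which were higher, and Ptpn6 (1.18-fold, adjusted p = 0.0105), which was lower. The call of Socs4 was lost without the filter on low counts (adjusted p = 0.127), with only the groups compared (0.0987) and with the GC correction (0.492), under which its log2 fold change was 0.052 in place of 0.13. The call of Nfil3 was lost without the filter (adjusted p = 0.0786), with limma-voom (0.0568) and with only the groups compared (0.0870), and that of Ptpn6 with only the groups compared (0.0580). With the replicate block the number of calls was higher in each of the 6 lists with tested genes, and reached 10 of the 16 genes known to respond to interleukin-10 or STAT3 from 2 without it, while the share of all tested genes called was 21.5% with the block and 3.39% without it. With thrombin against vehicle, Il1rn was the call without the block. With the block 2 Janus kinases or STATs, 3 SOCS genes or inhibitors, 5 genes that respond to interleukin-10 or STAT3 and 1 regulator were called, against 8.23% of all tested genes.

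The genes whose log2 CPM across the 16 libraries was most like that of a gene above were found by Pearson's r, as a description, since all points share treatments and replicate numbers. Nearest to Lif were Hbegf (r = 0.98), Fgf2 (0.98) and Has2 (0.97), which encode 2 growth factors and a hyaluronan synthase. Hbegf averaged 76.6 ± 23.6 CPM with activated platelets, 30.4 ± 8.51 CPM with resting platelets, 19.1 ± 3.97 CPM with thrombin and 13.2 ± 4.32 CPM with vehicle (SD, n = 4 each). Nearest to Osm were Smim3 (0.98), Fos (0.98), which encodes an AP-1 subunit, and Cyth1 (0.97). Fos averaged 228 ± 18.4 CPM with activated platelets, 92.7 ± 15.6 CPM with resting platelets, 56.3 ± 6.64 CPM with thrombin and 54.5 ± 3.13 CPM with vehicle (SD, n = 4 each). Socs2 was nearest to Sema7a, Errfi1 and Map4k4 (r = 0.95 for each), and Socs3 to Il21r (0.96), Vasp (0.95) and Bach2 (0.94). Stat3 was nearest to Psme3 (0.93), Uba1 (0.92) and Cdk17 (0.92), and Il10 to Metrnl (0.90), Nf2 (0.87) and Tomm40l (0.87). Il10ra was nearest to Ms4a7, Prex1 and Irak4 (0.88 for each), Il6ra to Scamp2 (0.96), Arid3a (0.95) and Ip6k1 (0.93), and Socs1 to Bcl7c (0.72), Cdin1 (0.70) and Ppp6r2 (0.70).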

How the data were processed

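Bulk RNA sequencing of 16 macrophage libraries from poly(A) RNA with a strand-preserving kit was analysed, in 4 groups of 4 taken from the sample titles. The authors deposited 1 table of estimated counts per gene with no normalization, by symbol and NCBI gene identifier, placed on GRCm39. The tools were STAR 2.7.2b, cutadapt 2.5 and featureCounts 1.6.4 (Subread), per the submitters' processing notes, which name mm10 beside GRCm39. How strand and multiply mapped reads were handled in counting is not stated in the sources used here. Of the values above 0, 25.5% were not whole, although whole counts were assumed when the tests were chosen, so values were rounded, which changed 0.0073% of all counts. The table held 0 columns of samples outside the series.

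Genes were filtered with filterByExpr by group, scaled by TMM and tested with edgeR 4.0.16 (robust quasi-likelihood, two-sided, R 4.3.3) over all 16 libraries as 4 groups without a block, for 6 comparisons. P-values were Benjamini-Hochberg adjusted over all tested genes at a threshold of 0.05, and the SE of a log2 fold change was taken from the F statistic. CPM are on TMM-scaled library sizes, and levels between genes were compared per kilobase of combined exon length, which is the authors' deposited value. Il6 did not pass the filter and was compared by exact permutation over libraries. Counting intervals are at 95% and cover counting error only. The script was tested on simulated counts. Alternatives were a replicate block, RLE size factors, no filter, DESeq2 1.42.0, limma-voom (limma 3.58.1), only the groups compared, each library or replicate number left out and, chosen after seeing the data, a correction for transcript GC content and that correction with the block.

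The genes, the lists around them and the tests were chosen with earlier results of these data known. Named were all 10 genes, up to 3 higher and 3 lower called genes per list and comparison with the smallest p, and the 3 genes with at least 5 CPM nearest to each tested gene by Pearson's r of log2 CPM (prior count 2). Osmr, Il10rb and the untested Il10 family ligands were named after their values were seen.

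Groups share replicate numbers. After group means were removed, the 24 pairs of libraries with the same number correlated at 0.290 to 0.617 and the 72 pairs with different numbers at -0.436 to 0.253, so the numbers were taken to pair libraries. The pairing was read from the data. By Ddx3y and Xist, replicate 1 was male and replicates 2 to 4 were female in every group, so replicate 1 came from other animals. The labels leave the meaning of a number unstated, and do not say that replicates are separate animals or cultures. P-values therefore measure the spread between these libraries, which may be partly technical. Between libraries of a group, chi-square per degree of freedom was 8.65 to 36.8, above counting noise, so none was counted as a repeat of another. Genes that overlap those described are Mir7086 (Il10ra, 56 counts in all libraries), Gm46295 (Stat3, 18.5) and Gm33230 (Socs2, 0), all uncertain if strand was not used.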

Additional observations from a re-analysis of the deposited data

Results flagged for a closer look

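The Osm difference with thrombin was larger with platelets than without. If the thrombin doses with and without platelets differed, dose and platelets cannot be told apart. The interaction was 1.13 log2 units (edgeR adjusted p = 0.000234), with Osm higher in all 4 activated platelet libraries than in any resting platelet library.

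In each of the 40 sets of 4 libraries (10 genes in 4 groups), the highest and lowest library were set against the others by Dixon's criterion, by which chance flags about 1 in 20 sets. It flagged 3. Il10ra was at 240 CPM in resting platelet replicate 3, against 200 to 202 CPM in the other 3, and replicate 3 was also the highest library of the activated platelet, thrombin and vehicle groups. Stat3 was at 133 CPM in resting platelet replicate 2, against 141 to 143 CPM in the others. Il6 was at 0.077 CPM in thrombin replicate 2, a library with 2 reads where the others had 1.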

How the results depend on the processing

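The 6 calls with activated platelets against vehicle, and the 0 with thrombin against vehicle, stood under every alternative, apart from 2 genes that the replicate block, with or without the GC correction, added to the 6. With activated platelets against thrombin, 6 genes were called, against 7 with the replicate block (with or without the GC correction), RLE and DESeq2, and 6 to 7 with libraries left out. With resting platelets against vehicle, 2 genes were called, against 7 with the replicate block, 6 with the block and a GC correction, 3 with DESeq2, 1 without a filter on low counts, 1 with limma-voom, 1 with only the groups compared, and 0 to 2 with libraries left out. Without the filter the adjusted p of Lif was 0.0505. The adjusted p of Osm was 0.0544 with limma-voom and 0.0988 with only the groups compared. With activated against resting platelets, 3 genes were called, against 5 with the replicate block, 4 with the block and a GC correction, 4 with DESeq2, 4 with limma-voom and 1 to 4 with libraries left out. Socs2 had adjusted p = 0.051 with only the groups compared. In the interaction 1 gene was called, against 5 with the replicate block, 2 with DESeq2, 2 with the block and a GC correction, and 1 to 2 with libraries left out. The cause of these shifts was not tested. The block changed no call on the 10 genes besides those given above.

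Changes of sign occurred only in genes that were not called. Socs1 with activated against resting platelets was 0.017 log2 units, against -0.0395 with limma-voom, -0.0435 with the GC correction and -0.0479 with the block and that correction. Il6ra in the interaction was -0.000232, against 0.00213 with the replicate block, 0.00327 with RLE, 0.00827 without the filter, 0.00335 with DESeq2 and 0.00273 with limma-voom. With libraries left out, Il6ra ranged over -0.12 to 0.026 with resting platelets and -0.11 to 0.0075 with thrombin against vehicle, -0.13 to 0.033 with activated against resting platelets, -0.11 to 0.039 with activated platelets against thrombin and -0.077 to 0.085 in the interaction. Against vehicle, thrombin gave -0.21 to 0.11 for Il10, -0.020 to 0.036 for Stat3 and -0.14 to 0.094 for Socs2. Socs1 ranged over -0.13 to 0.22 with activated against resting platelets and -0.021 to 0.37 with activated platelets against thrombin.

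Of 85 calls on named genes of the surrounding lists, the replicate block kept 84, RLE 85, no filter 77, limma-voom 81, the GC correction 80 and the block with that correction 82. DESeq2 kept 84 of 84 with a value and the fit of only the groups compared 63 of 72, and 15 were lost at least once with 1 library left out. Log2 fold change and transcript GC content were related across genes at Spearman's rho of -0.451 with thrombin and -0.351 with resting platelets against vehicle, and -0.0575 with activated platelets. The GC correction changed no call on the 9 genes. Depth limits Il6, Il10 and Socs1 most. In a vehicle library 1 read was worth 0.036 to 0.045 CPM.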

Other observations

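The lists around these genes also held calls in the interaction. Il11 (log2 value 3.14 ± 0.59 SE, adjusted p = 0.00332) and Clcf1 (0.74, adjusted p = 0.0375) rose more with thrombin in the presence of platelets than in their absence. Il6st (-0.90 ± 0.11, adjusted p = 0.000207) and Lifr (-0.83, adjusted p = 0.0182) had negative values. Crem had 1.13 ± 0.15 (adjusted p = 0.000298), Pim1 0.62, Sbno2, a gene that responds to interleukin-10, 0.42, and Bcl3, which encodes a nuclear IkB protein, 0.77. Atf3 had -1.39 (adjusted p = 0.0221), Ptpn6 -0.31 and Etv3 -0.40. The call of Clcf1 was lost with limma-voom (adjusted p = 0.0702) and with the GC correction (0.118). That of Cebpb (log2 value 0.71) was lost without the filter on low counts (adjusted p = 0.0570), with the GC correction (0.120, log2 value 0.49) and with the block and that correction (0.0930). That of Atf3 was lost without the filter (adjusted p = 0.0899).

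With activated against resting platelets, 10 of the 16 genes known to respond to interleukin-10 or STAT3 were called, 8 higher and 2 lower, where 15.8% of all tested genes were called, 7.34% higher and 8.49% lower. They included Il1rn (1.76-fold), Pim1 (1.59-fold) and Nfil3 (1.37-fold), which were higher, and Etv3 (1.35-fold) and Ccnd1 (1.55-fold), which were lower. The adjusted p of Ccnd1 was 0.141 without the filter on low counts and 0.0922 with only the groups compared.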
